A study of Mus musculus with 15 samples.

Results

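The genes described here coat the lipid droplet or build, break down or move triglyceride in the hepatocyte: Plin2, Plin4, Plin5, Cidec, Pnpla2, Pnpla3, Dgat2, G0s2, Lpin1 and Mfsd2a. They were taken by name, and every probe set that the platform annotation gives to 1 of these symbols alone was read. This gave 14 probe sets for the 10 genes, of 34945 probe sets with a single symbol on the array. Primary hepatocytes of male C57BL/6 mice were measured on 15 arrays, 3 per group. The groups were freshly isolated cells (fresh), cells held for 4 h or 24 h as a monolayer in a tissue culture dish (TCD), and cells held for 4 h or 24 h as aggregates in a rotating wall vessel (RWV). The 3 replicates of a group are separate biological replicates by the study's design. The labels name no genetic change and no added agent, and state no age. Each value is a log2 change from the median of the 3 fresh arrays, so 1 unit is a doubling of signal and no absolute level can be read. Differences are group means with the standard error (SE) of a limma fit to all 15 arrays, and a gene was called when its Benjamini-Hochberg adjusted p over 25429 probe sets was below 0.05.

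Hepatocytes store surplus fatty acid as triglyceride in droplets that carry a coat of perilipins, and proteins of the CIDE family let droplets grow by fusion. Triglyceride is made by stepwise acylation of glycerol phosphate, in which lipins remove the phosphate and diacylglycerol acyltransferases add the last acyl chain. It is broken down first by the adipose triglyceride lipase encoded by Pnpla2, which G0s2 protein inhibits and perilipins keep away from or hold near the droplet. The same droplet genes respond to fasting, insulin and fatty acid load in liver.

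In culture the genes split by direction. Plin2 and Cidec rose above fresh cells in both vessels and at both times. Dgat2, Plin5, Pnpla2 and Lpin1 had fallen below fresh cells by 24 h in both vessels, as had the lipid transporter gene Mfsd2a. At 24 h the aggregates held 12.2-fold more G0s2 mRNA and 2.39-fold more Dgat2 mRNA than the monolayer, and 3.18-fold less Mfsd2a mRNA. Plin4 and Pnpla3 stayed within 0.53 log2 units of the fresh median on every array as deposited. Because these are bulk samples, fewer cells carrying a transcript and less of it per cell cannot be told apart.

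**Figure D1:**
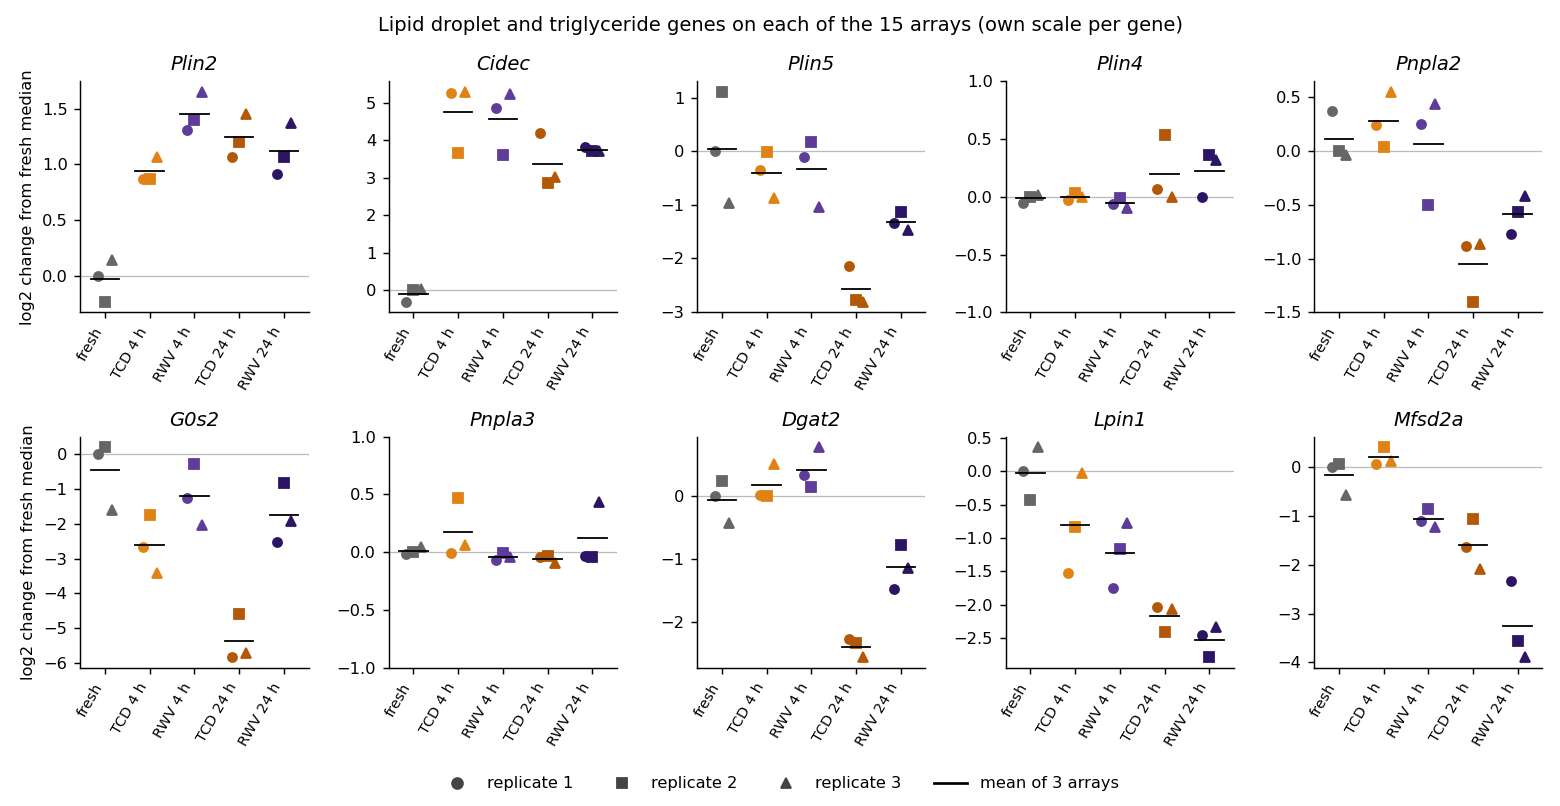
Log2 change from the fresh median for the lead probe set of each gene, by group, with a marker shape per replicate number and a line at the mean of the 3 arrays. The vertical scale differs between genes. Plin2 and Cidec lie above fresh cells on all 12 cultured arrays, and G0s2 is lowest in the monolayer at 24 h (-5.83 to -4.59).

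The arrays as a whole were alike in centring, with medians over all probe sets from -0.077 to 0.077. One array, TCD 4 h replicate 2, had a median of 1.08 over the 18 hybridisation controls, against at most 0.18 on the other arrays. These controls were also lower on all 6 arrays at 24 h, at -0.51 to -0.40 in TCD and -0.73 to -0.46 in RWV, than on any fresh or 4 h array (-0.25 and above). The 4 hepatocyte markers on the array (Alb, Apoa1, Ttr and Fgb) averaged -0.45 to 0.11 on all arrays, and none was called between the vessels in the fit reported. At 24 h Apoa1 and Ttr were called below fresh cells in both vessels and Fgb in TCD. With arrays centred on 7 reference genes all 4 were called higher in RWV than in TCD at 24 h (median 0.35). That centring called 14172 of 25429 probe sets higher there. No adipocyte marker of the 3 on the array had a probe set off the background. At 24 h the mean change of the 2 stellate markers off the background was 2.69 to 2.94 in TCD and -0.023 to 1.03 in RWV, and that of the 3 cholangiocyte markers was 2.74 to 3.97 in TCD and 0.82 to 1.29 in RWV. The 3 sinusoidal endothelial markers averaged -0.81 to -0.47 in TCD and -1.61 to -0.93 in RWV, and the 5 Kupffer cell markers -0.59 to 0.21 and -0.22 to 1.73. These means hide differences within a list. Against fresh cells in TCD at 24 h, the 2 stellate markers stood at -0.076 and 5.53. There the cholangiocyte markers ran from 1.32 to 4.65 and the endothelial ones from -4.04 to 1.51. As a sign of RNA quality, Actb signal at the 3′ end less that at the 5′ end was -0.45 to -0.43 in TCD at 24 h and -0.26 to -0.22 in RWV, relative to fresh cells. The same measure for Gapdh was -0.050 to -0.015 in TCD and -0.063 to -0.055 in RWV. The part of these markers and of RNA quality in the results below was not tested.

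Plin2, a coat protein of hepatocyte droplets, was at 0, -0.24 and 0.14 on the fresh arrays (replicates 1 to 3, probe set 1448318_at). It was at 0.87, 0.87 and 1.07 in TCD and at 1.31, 1.402 and 1.66 in RWV after 4 h. After 24 h it was at 1.07, 1.20 and 1.46 in TCD and at 0.91, 1.07 and 1.37 in RWV. No cultured array reached down to the fresh range. At 4 h the highest monolayer array lay below the lowest aggregate array, whereas at 24 h the vessels overlapped. Against fresh cells Plin2 rose by 0.97 ± 0.15 (SE, n = 3 per group, adjusted p = 0.000602) in TCD and by 1.49 ± 0.15 (adjusted p = 2.02e-05) in RWV at 4 h. At 24 h it stood 1.28 ± 0.15 (adjusted p = 1.38e-05) above fresh cells in TCD and 1.15 ± 0.15 (adjusted p = 4.78e-05) in RWV. With arrays centred on 7 reference genes, whose own median had moved to 1.11 to 1.26 in TCD at 24 h, the difference there was 0.063 (adjusted p = 0.744), and that in RWV at 24 h was 0.41 (adjusted p = 0.0474).

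Cidec, a protein that concentrates where droplets touch and enlarges them, had the largest increase among the 10 genes. The fresh arrays were at -0.31, 0 and 0.025 (probe set 1452260_at). At 4 h the TCD arrays were at 5.26, 3.66 and 5.30 and the RWV arrays at 4.85, 3.61 and 5.22, with replicate 2 the lowest in both vessels. At 24 h the values were 4.20, 2.86 and 3.03 in TCD and 3.81, 3.71 and 3.71 in RWV. All 12 cultured arrays lay at least 2.86 above the fresh median, and the vessels overlapped at both times. The rise from fresh cells was 4.84 ± 0.50 (adjusted p = 2.55e-05) in TCD and 4.66 ± 0.50 (adjusted p = 3.18e-05) in RWV at 4 h, or 28.6-fold and 25.2-fold. After 24 h it was 3.46 ± 0.50 (adjusted p = 7.63e-05) in TCD and 3.84 ± 0.50 (adjusted p = 4.58e-05) in RWV. The values hold no absolute level, so whether the fresh signal of Cidec lay near the array background is not known. From 4 h to 24 h Cidec fell by 1.38 ± 0.50 in TCD (adjusted p = 0.0366), although the 2 sets of arrays overlapped. That call ended without TCD 4 h replicate 1 (adjusted p = 0.12) or 3 (0.123), without TCD 24 h replicate 2 (0.126) or 3 (0.114), and with only the arrays compared (0.12).

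The promoters of these 2 genes are shown because they were the only members called above fresh cells. RefSeq promoter windows of GRCm38.p6 (250 bases before to 50 after a start) were held for 9 of the 10 genes, in 11 windows. The stretches below cover the 150 bases before each start, on the gene's own strand from 5′ to 3′. All lie on the minus strand: Plin2 at chr4:86670058-86670209, which runs 2 bases past the start, and the 2 starts of Cidec at chr6:113435761-113435910 and chr6:113434765-113434914. Capitals mark matches to the motifs searched.
Plin2: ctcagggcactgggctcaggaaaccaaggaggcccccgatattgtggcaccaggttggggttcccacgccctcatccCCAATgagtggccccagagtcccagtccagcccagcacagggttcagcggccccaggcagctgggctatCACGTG
Cidec first start: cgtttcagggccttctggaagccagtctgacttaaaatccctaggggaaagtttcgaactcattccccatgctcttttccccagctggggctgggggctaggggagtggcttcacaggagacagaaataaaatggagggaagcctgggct
Cidec second start: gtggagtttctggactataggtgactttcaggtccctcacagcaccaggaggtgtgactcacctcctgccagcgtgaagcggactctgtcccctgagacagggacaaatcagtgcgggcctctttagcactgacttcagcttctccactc
Capitals in Plin2 are a CCAAT box (CCAAT, first base at -73) and an E-box (CACGTG, first base at -4, running over the start). Neither window of Cidec held any motif searched. The search covered both strands for the PPAR response element (a direct repeat), the sterol regulatory element TCACNCCAC, the E-box, the FOXO element TGTTTAC, the hypoxia element ACGTGC, the TATA box TATAAA and the CCAAT box. The E-box and the hypoxia element share the letters ACGTG and can overlap. Of 32851 promoter windows in the table, 7.15% held the E-box, 37.4% the CCAAT box, 5.91% the hypoxia element and 0.381% the PPAR element, while 1.24% held the sterol element, 3.65% the FOXO element and 13.6% the TATA box. No member window held the PPAR element, the sterol element, the FOXO element or the TATA box, which says only that these letters are not in the windows searched.

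Plin5, a perilipin of oxidative tissues that brings droplets to mitochondria, went the other way from Plin2. On the fresh arrays it was at 0, 1.12 and -0.96 (probe set 1424937_at), the widest fresh spread among the 10 genes. At 4 h it was at -0.34, -0.016 and -0.88 in TCD and at -0.11, 0.17 and -1.04 in RWV, within the fresh range apart from RWV replicate 3. At 24 h the TCD arrays were at -2.14, -2.79 and -2.81 and the RWV arrays at -1.33, -1.14 and -1.47. Both vessels then lay below every fresh array, and the monolayer lay below every aggregate array. Plin5 fell by 2.64 ± 0.46 from fresh cells in TCD at 24 h (adjusted p = 0.000369) and by 1.37 ± 0.46 in RWV (adjusted p = 0.0293). The RWV call ended without fresh replicate 1 (adjusted p = 0.0597) or 2 (-0.83, 0.121), without RWV 24 h replicate 1 (0.0683), 2 (0.0502) or 3 (0.0832), and with only the arrays compared (0.103). The second probe set, 1441915_s_at, followed the first (r = 0.986 over the 15 arrays), at -2.56 ± 0.40 in TCD (adjusted p = 0.000143) and -1.42 ± 0.40 in RWV (adjusted p = 0.0112).

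Plin4, a perilipin found mostly in fat tissue, was flat. Its 1 probe set, 1418595_at, ranged from -0.10 to 0.53 over the 15 arrays, with TCD 24 h replicate 2 highest. The 3 highest arrays were all from 24 h (0.53, 0.36 and 0.32), and no comparison was called in the fit reported. Without RWV 24 h replicate 1 the difference from 4 h to 24 h in RWV was called (0.40, adjusted p = 0.0389). With arrays centred on reference genes the differences from fresh cells at 24 h were -1.0002 in TCD (adjusted p = 3.19e-05) and -0.50 in RWV (adjusted p = 0.00852). That centring subtracted a reference median of 1.11 to 1.26 in TCD and of 0.60 to 0.85 in RWV. Whether the Plin4 signal lay near the array background is not known, as the values hold no absolute level.

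The lipase gene Pnpla2, which encodes the enzyme that takes the first fatty acid from triglyceride, was not called at 4 h and was lower than fresh cells at 24 h. The fresh arrays were at 0.37, 0 and -0.038 (probe set 1428143_a_at). At 4 h the values were 0.24, 0.033 and 0.55 in TCD and 0.25, -0.50 and 0.44 in RWV. At 24 h they were -0.89, -1.403 and -0.87 in TCD and -0.77, -0.57 and -0.42 in RWV. The 24 h arrays of each vessel lay below all fresh arrays, and those of the monolayer lay below those of the aggregates. Pnpla2 fell by 1.16 ± 0.24 from fresh cells in TCD at 24 h (adjusted p = 0.00134) and by 0.70 ± 0.24 in RWV (adjusted p = 0.0332). The RWV call ended without fresh replicate 1 (adjusted p = 0.117) or 2 (0.0504), or without RWV 24 h replicate 1 (0.108) or 2 (0.0685). A second probe set of Pnpla2, 1428591_at, followed the background of the arrays (r = 0.929, SD 0.052) and was not tested.

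G0s2, the small protein that binds and inhibits this lipase, changed more between the vessels than any other member. The fresh arrays were at 0, 0.19 and -1.60 (probe set 1448700_at). At 4 h G0s2 was at -2.67, -1.76 and -3.41 in TCD and at -1.28, -0.29 and -2.05 in RWV. At 24 h it was at -5.83, -4.59 and -5.69 in TCD but at -2.52, -0.84 and -1.93 in RWV. Replicate 2 was the highest array in all 5 groups. The monolayer at 24 h lay below every other array, and the aggregates at 24 h overlapped the fresh arrays. Against fresh cells G0s2 fell by 4.90 ± 0.64 in TCD at 24 h (adjusted p = 3.49e-05), or 29.9-fold, while in RWV the difference was -1.29 ± 0.64 (adjusted p = 0.126). At 4 h it fell by 2.14 ± 0.64 in TCD (adjusted p = 0.032) and the RWV difference was -0.73 ± 0.64 (adjusted p = 0.461). The TCD call at 4 h ended without fresh replicate 1 (adjusted p = 0.107) or 2 (0.112), without TCD 4 h replicate 1 (0.0748) or 3 (0.107), with only the arrays compared (0.118) and with no background filter (0.0522). Without fresh replicate 3, the lowest fresh array, the RWV difference at 24 h was called (-1.86, adjusted p = 0.0384), as it was with arrays centred on reference genes (-2.03, adjusted p = 0.00955).

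Pnpla3, a relative of Pnpla2 that sits on hepatocyte droplets, was flat as well. Its 1 probe set, 1420655_at, lay between -0.094 and 0.065 on 13 arrays, with TCD 4 h replicate 2, the array with high hybridisation controls, at 0.47 and RWV 24 h replicate 3 at 0.44. No comparison was called in the fit reported. With arrays centred on reference genes the differences from fresh cells at 24 h were -1.28 in TCD (adjusted p = 1.93e-06) and -0.63 in RWV (adjusted p = 0.00142). The reference median subtracted there was 1.11 to 1.26 in TCD and 0.60 to 0.85 in RWV. The values hold no absolute level, so whether the Pnpla3 signal lay near the array background is not known.

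Dgat2, the acyltransferase that adds the last fatty acid to triglyceride made from new lipid, was not called at 4 h and was low at 24 h. The fresh arrays were at 0, 0.23 and -0.43 (probe set 1422678_at). At 4 h the values were 0.019, -0.0045 and 0.51 in TCD and 0.33, 0.14 and 0.77 in RWV. At 24 h they were -2.27, -2.32 and -2.56 in TCD and -1.47, -0.77 and -1.13 in RWV, with no overlap between vessels or with fresh cells. Dgat2 fell by 2.32 ± 0.23 from fresh cells in TCD (adjusted p = 3.42e-06) and by 1.06 ± 0.23 in RWV (adjusted p = 0.00239). The second probe set, 1422677_at, gave the same directions with smaller sizes, -1.76 ± 0.25 (adjusted p = 7.37e-05) and -0.92 ± 0.25 (adjusted p = 0.00996).

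Lpin1, the phosphatidate phosphatase that makes diacylglycerol and also acts in the nucleus, declined with time in both vessels. It was at 0, -0.43 and 0.36 on the fresh arrays (probe set 1418288_at). At 4 h its values were -1.53, -0.83 and -0.032 in TCD and -1.75, -1.16 and -0.77 in RWV. By 24 h they were -2.03, -2.41 and -2.06 in TCD and -2.45, -2.79 and -2.33 in RWV. Every 24 h array lay below every 4 h array of the same vessel. The fall from fresh cells was 4.43-fold in TCD at 24 h (-2.15 ± 0.35, adjusted p = 0.00021) and 5.65-fold in RWV (-2.50 ± 0.35, adjusted p = 8.45e-05). At 4 h Lpin1 was called only in RWV (-1.21 ± 0.35, adjusted p = 0.0233, against -0.77 ± 0.35 and 0.148 in TCD), and the vessels were not shown to differ (-0.43 ± 0.35, adjusted p = 0.552). The second probe set, 1426516_a_at, followed the first (r = 0.986), at -1.71 ± 0.35 in TCD (adjusted p = 0.00118) and -2.21 ± 0.35 in RWV (adjusted p = 0.000216) at 24 h. The RWV call at 4 h ended without fresh replicate 1 (adjusted p = 0.0593) or 3 (0.0858), without RWV 4 h replicate 1 (0.095) or 2 (0.0534), and with only the arrays compared (0.054). The TCD difference at 4 h was called without TCD 4 h replicate 3 (-1.16, adjusted p = 0.024) and with arrays centred on reference genes (-1.01, adjusted p = 0.0391).

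Mfsd2a, a carrier of lysophosphatidylcholine across the plasma membrane that is known in liver as a fasting gene, was the member called lower in aggregates. The fresh arrays were at 0, 0.075 and -0.56 (probe set 1428223_at). After 4 h the TCD arrays were at 0.067, 0.41 and 0.12 and the RWV arrays at -1.10, -0.86 and -1.23. After 24 h they were at -1.64, -1.06 and -2.08 in TCD and at -2.32, -3.56 and -3.90 in RWV. The vessels did not overlap at either time. From fresh cells to 24 h Mfsd2a fell by 1.43 ± 0.36 in TCD (adjusted p = 0.00527) and by 3.10 ± 0.36, or 8.57-fold, in RWV (adjusted p = 2.02e-05). At 4 h the differences from fresh cells were 0.36 ± 0.36 in TCD (adjusted p = 0.559) and -0.90 ± 0.36 in RWV (adjusted p = 0.0921), the latter called with only the arrays compared (adjusted p = 0.0352) and with arrays centred on reference genes (-1.27, adjusted p = 0.00932).

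The promoters of G0s2 (chr1:193273189-193273338) and Mfsd2a (chr4:122961189-122961338), both on the minus strand of GRCm38.p6, are shown because these 2 genes differed most between the vessels, in opposite directions.
G0s2: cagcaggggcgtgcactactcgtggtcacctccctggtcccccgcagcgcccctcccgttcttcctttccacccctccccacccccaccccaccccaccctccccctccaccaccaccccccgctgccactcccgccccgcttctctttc
Mfsd2a: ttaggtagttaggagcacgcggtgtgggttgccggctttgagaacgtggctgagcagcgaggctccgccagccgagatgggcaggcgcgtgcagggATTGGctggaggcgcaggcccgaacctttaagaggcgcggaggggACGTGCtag
Capitals in Mfsd2a are a CCAAT box on the reverse strand (ATTGG, first base at -54) and the hypoxia element ACGTGC (first base at -9). The G0s2 window held no motif searched, and 72% of its printed bases are G or C, against 65.3% for Mfsd2a. Among the 11 member windows the hypoxia element was in 1, the E-box in 1 and the CCAAT box in 5.

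The comparison of aggregates with monolayer asked how the vessel changed these genes at equal time. At 4 h no member was called, in a comparison where 5.06% of all probe sets tested were (4.36% higher and 0.7% lower). At an unadjusted p below 0.05, 3 members and 19.1% of all probe sets passed. The members were G0s2 (1.41 ± 0.64, adjusted p = 0.257), Mfsd2a (-1.26 ± 0.36, adjusted p = 0.071) and Plin2 (0.52 ± 0.15, adjusted p = 0.0722) in the limma fit. Arrays of the same replicate number deviated together in these 2 groups (correlations 0.333 to 0.486). With the replicate number as a block all 3 were called, Plin2 at an adjusted p of 0.0103, G0s2 at 0.0362 and Mfsd2a at 0.042. The block called 5.48% of all probe sets. Between arrays of 1 number, RWV exceeded TCD in G0s2 by 1.39, 1.48 and 1.35 and in Plin2 by 0.44, 0.53 and 0.59. Mfsd2a was lower in RWV by the same pairing in all 3, with differences of -1.17, -1.27 and -1.35. With no background filter Plin2 (adjusted p = 0.0127) and Mfsd2a (0.0158) were called as well. That setting called 50.1% of 45037 probe sets, 2581 of them higher and 19980 lower. Leaving out any 1 array of the 2 groups, TCD 4 h replicate 2 among them, called 0 members and 607 to 1582 probe sets.

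At 24 h G0s2 and Dgat2 were higher in aggregates and Mfsd2a was lower. These were 3 of the 10 members, in a comparison that called 13.3% of all probe sets tested (7.37% higher and 5.91% lower). G0s2 differed by 3.61 ± 0.64 (adjusted p = 0.00273), Dgat2 by 1.26 ± 0.23 (adjusted p = 0.00338) and Mfsd2a by -1.67 ± 0.36 (adjusted p = 0.00924). The second probe set of Dgat2 gave 0.84 ± 0.25 (adjusted p = 0.0458). All 3 kept their call without any 1 array of either group, and Mfsd2a lost it with only the 6 arrays compared (adjusted p = 0.0846). Plin5 (1.27 ± 0.46, adjusted p = 0.0971) and Pnpla2 (0.47 ± 0.24, adjusted p = 0.265) were not called. Plin5 was called with only the arrays compared (adjusted p = 0.0214), and its second probe set stood at 1.14 ± 0.40 (adjusted p = 0.0834). With arrays centred on reference genes, which moved the median of all probe sets to 0.47, 6 members were higher and 1 was lower in RWV, against 2 and 1 in the fit reported. With that centring 58.4% of all probe sets were called. Plin2 (-0.13 ± 0.15, adjusted p = 0.737), Cidec (0.38 ± 0.50, adjusted p = 0.776) and Lpin1 (-0.35 ± 0.35, adjusted p = 0.643) were not called, and Plin2 and Lpin1 turned positive under that centring.

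**Figure D2:**
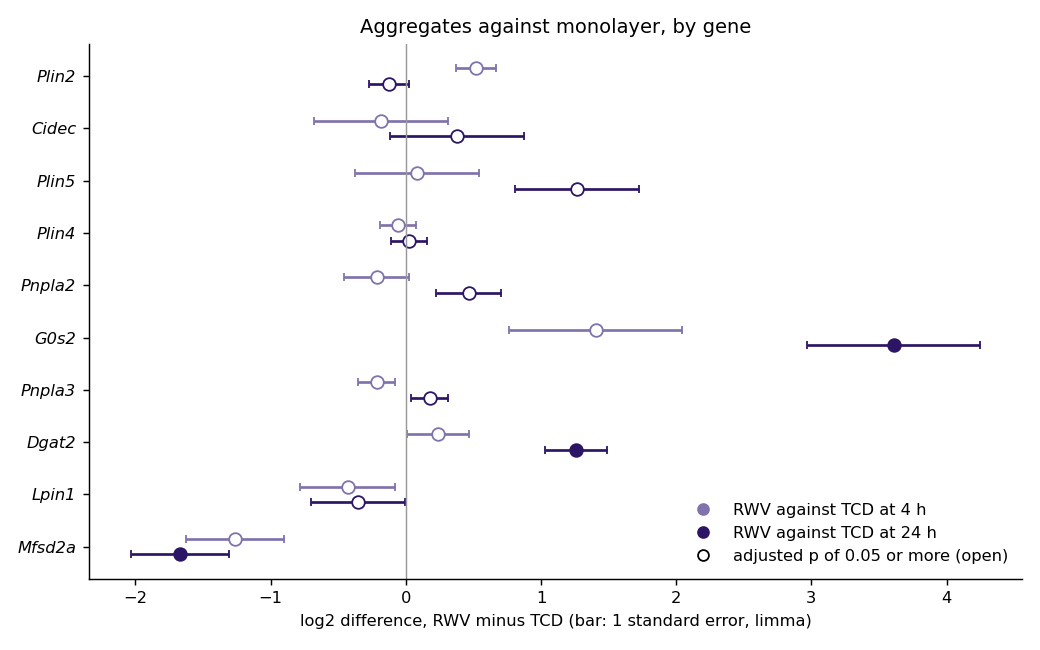
Log2 difference between aggregates (RWV) and monolayer (TCD) for each gene at 4 h and 24 h, with bars of 1 standard error from the limma fit. Filled points are called at an adjusted p below 0.05. The 3 filled points are G0s2 (3.61), Dgat2 (1.26) and Mfsd2a (-1.67), all at 24 h.

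Whether the vessel difference itself changed between 4 h and 24 h was tested as an interaction, which called 10.3% of all probe sets (4.16% higher and 6.19% lower) and no member in the limma fit. At an unadjusted p below 0.05, 3 members (G0s2, Dgat2 and Plin2) and 25.3% of all probe sets passed. The difference of differences was 2.20 ± 0.90 for G0s2 (adjusted p = 0.15), 1.18 ± 0.65 for Plin5 (adjusted p = 0.283), 1.02 ± 0.33 for Dgat2 (adjusted p = 0.0696) and -0.64 ± 0.21 for Plin2 (adjusted p = 0.0759). Dgat2 was called without RWV 4 h replicate 3 (adjusted p = 0.0488), without RWV 24 h replicate 1 (0.0429), with no background filter (0.0423) and with reference genes as centre (1.63, adjusted p = 0.00325). Plin2 was called without RWV 24 h replicate 3 (-0.77, adjusted p = 0.0438) and with no background filter (0.0412), whereas with reference genes as centre it stood at -0.036 (adjusted p = 0.912). With that centring G0s2 (2.81, adjusted p = 0.0175) and Plin5 (1.79, 0.026) were called. The replicate block called Plin2 (adjusted p = 0.00916) and G0s2 (0.0136), although the numbers did not pair all 4 groups. Of all probe sets, 32.1% were called with no background filter, 51.6% with that centring and 12.6% with the block. For G0s2 the pairs of 1 replicate number gave 3.31, 3.76 and 3.76 at 24 h against 1.35 to 1.48 at 4 h. At 24 h the numbers were not taken to pair the vessels (correlations 0.0857 to 0.347). For Mfsd2a the pairs spread from -0.69 (replicate 1) to -2.50 (replicate 2) at 24 h, and its interaction was -0.41 ± 0.51 (adjusted p = 0.666).

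**Figure D3:**
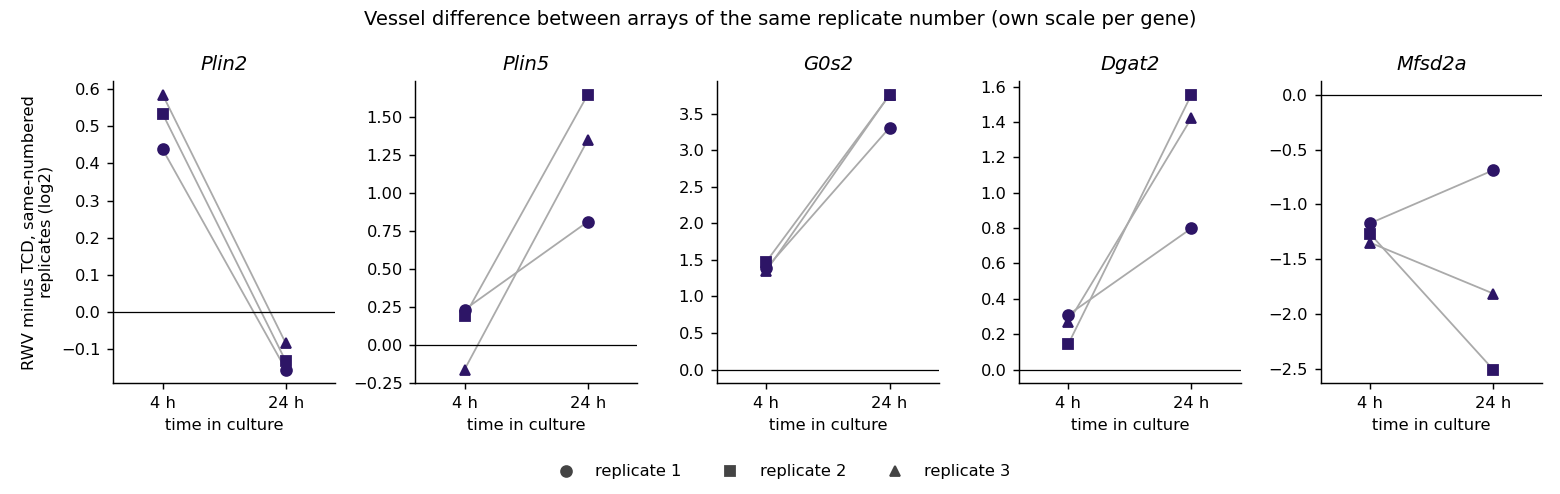
Log2 difference RWV minus TCD between arrays of the same replicate number at 4 h and 24 h, 1 marker shape and line per number, with an own scale for each gene. The numbers were not taken to pair the vessels at 24 h. The G0s2 pairs lie at 1.35 to 1.48 at 4 h and at 3.31 to 3.76 at 24 h, and the Plin2 pairs lie above 0 at 4 h and below 0 at 24 h.

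Against fresh cells, called members were 2 higher (Plin2, Cidec) and 1 lower (G0s2) in TCD at 4 h, where 21.2% of probe sets were called, 8.69% higher and 12.5% lower. In RWV at 4 h they were 2 higher (Plin2, Cidec) and 1 lower (Lpin1), against 25.8% of all probe sets, 13.5% higher and 12.3% lower. At 24 h the monolayer had 2 members higher and 6 lower, while 49.9% of all probe sets were called, 29.1% higher and 20.8% lower. The aggregates at 24 h had the same 2 higher and 5 lower (all but G0s2 of those 6), against 43.8% of all probe sets, 27.3% higher and 16.5% lower. With arrays centred on reference genes the members split into 1 higher and 8 lower in TCD and 2 higher and 8 lower in RWV at 24 h, Plin4 and Pnpla3 among the lower, while all probe sets split into 2202 higher and 19020 lower in TCD and 2832 and 15727 in RWV. The median over the 10 members was -1.30 in TCD and -0.88 in RWV at 24 h, while that of all probe sets was -0.024 and -0.0082. These comparisons share the fresh arrays, so they are not independent of each other. From 4 h to 24 h, 7 members fell in TCD, where 48.3% of probe sets were called (30.7% higher and 17.6% lower). In RWV 3 fell, where 36.2% were called (23.3% higher and 12.9% lower). The 3 were Dgat2 (-1.54 ± 0.23, adjusted p = 0.000222), Mfsd2a (-2.20 ± 0.36, adjusted p = 0.000442) and Lpin1 (-1.29 ± 0.35, adjusted p = 0.0112), and Lpin1 lost its call without RWV 4 h replicate 3 (adjusted p = 0.0515). In TCD the differences were -2.76 ± 0.64 for G0s2, -2.56 ± 0.23 for Dgat2, -2.17 ± 0.46 for Plin5, -1.79 ± 0.36 for Mfsd2a, -1.37 ± 0.35 for Lpin1 and -1.33 ± 0.24 for Pnpla2, beside Cidec. In that comparison Plin2 stood at 0.31 ± 0.15 (adjusted p = 0.11). The replicate block, which the correlations of these 2 groups (0.106 to 0.218) allow, called it (adjusted p = 0.0131), and centring on reference genes turned it to -0.67 (adjusted p = 0.00327). In RWV, Pnpla2 was called without RWV 4 h replicate 2 (-0.93, adjusted p = 0.00527) and Plin2 without RWV 24 h replicate 3 (-0.46, adjusted p = 0.039), beside Plin4 as given above.

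Among themselves the members formed pairs of like course over the 15 arrays. Pnpla2 and Dgat2 correlated at r = 0.896, Plin5 and G0s2 at 0.851, Plin5 and Dgat2 at 0.834, and Plin2 and Cidec at 0.821. The points share their groups and replicate numbers, so these values describe the course and are given without a test. Outside the list, the gene closest in course to each member among 12413 others was Snhg12 for Plin2 (r = 0.969), Phf3 for Cidec (0.976), Mcfd2 for Plin5 (0.982) and Mtmr1 for Pnpla2 (0.955). For Dgat2 it was Hnf4a, the nuclear receptor that maintains hepatocyte genes (0.984). The closest gene was Ubxn4 for G0s2 (0.936), Gm16551 for Lpin1 (0.952) and 2310010J17Rik for Mfsd2a (0.935). For the flat genes it was Pced1b for Plin4 (0.909) and S100a9 for Pnpla3 (0.981), correlations that rest on the few arrays off 0.

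Other genes of the pathway were read from lists of known function, in which Fabp1 and Gpam each stand in 2 lists. Of all probe sets tested, 29.1% were called higher and 20.8% lower than fresh cells in TCD at 24 h, and 27.3% and 16.5% in RWV. Between the vessels at that time, 7.37% were higher and 5.91% lower in RWV. With reference genes as centre, 2202 were called higher and 19020 lower in TCD against fresh cells, and 2832 and 15727 in RWV. Of 13 further droplet coat and size genes, 3 were higher and 7 lower than fresh cells in TCD at 24 h, and 3 were higher and 5 lower in RWV. With reference genes as centre the counts were 3 and 10 in TCD and 3 and 9 in RWV. The higher ones in both vessels were the perilipin gene Plin3, the CIDE gene Cidea and Hilpda, a hypoxia-induced inhibitor of the same lipase that G0s2 inhibits. Hilpda rose by 6.66 ± 0.38 in TCD (adjusted p = 2.38e-07) and by 4.84 ± 0.38 in RWV (adjusted p = 2.65e-06) at 4 h. It was lower in RWV than in TCD at 4 h (-1.83 ± 0.38, adjusted p = 0.0183) and at 24 h (-1.501 ± 0.38, adjusted p = 0.0213), when G0s2 was higher in RWV. Cidea was lower in RWV at 24 h (-2.92 ± 0.36, adjusted p = 0.000264), while Hsd17b11 was the droplet gene with the largest called excess there (0.94).

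Of 8 other lipases and cofactors, 7 were lower and 1 was higher than fresh cells in TCD at 24 h, with a median of -2.03. In RWV 6 were lower and 1 was higher, with a median of -1.63. The higher one was Abhd5, the coactivator of the Pnpla2 lipase, at 1.30 ± 0.21 (adjusted p = 0.000215) in TCD and 1.04 ± 0.21 (adjusted p = 0.00151) in RWV, but it was not called in either vessel with arrays centred on reference genes. Monoglyceride lipase Mgll fell by 4.76 ± 0.30 in TCD (adjusted p = 7.3e-08) and was higher in RWV than in TCD by 2.54 ± 0.30 (adjusted p = 0.000177). Between the vessels at 24 h, 2 of the 8 were higher in RWV and 0 lower.

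Of 14 other genes of glycerolipid synthesis, 5 were higher and 5 lower in TCD at 24 h than in fresh cells, and 4 and 3 in RWV. With reference genes as centre they were 2 higher and 10 lower in TCD and 2 and 9 in RWV. Gpat3, an acyltransferase of the first step, was the highest in both vessels, at 4.10 ± 0.35 (adjusted p = 9.44e-07) and 4.08 ± 0.35 (adjusted p = 1.53e-06). Only Agpat5 was called between the vessels at 24 h (-0.99), whereas with reference genes as centre 8 were higher and 1 lower. Under that centring 14172 of 25429 probe sets were called higher in RWV and 683 lower. Of 11 genes of fatty acid uptake and triglyceride export, 4 were higher and 2 lower in RWV than in TCD at 24 h, and 6 and 1 with reference genes as centre. Tm6sf2, which acts in lipoprotein secretion, led the higher ones (3.14 ± 0.40, adjusted p = 0.000297) and Fabp1 the lower ones (-1.69). The fatty acid binding gene Fabp4 stood 4.14 ± 0.35 above fresh cells in TCD (adjusted p = 8.11e-07) and 6.41 ± 0.35 in RWV (adjusted p = 3.57e-08).

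Of 15 PPAR-alpha targets outside the members, 3 were higher and 10 lower in TCD at 24 h than in fresh cells (median -1.71), and 3 and 9 in RWV (median -2.07), while Plin2 and Cidec stood above fresh cells. Between the vessels at 24 h, 3 of these 15 were higher and 2 lower in RWV (median 0.031), and 4 and 1 with reference genes as centre. Of 15 targets of SREBP-1 and ChREBP, 5 were higher and 2 lower in RWV at 24 h (median 0.92), and 13 and 2 with reference genes as centre. The median of the members in that comparison was 0.28, and that of all probe sets tested was 0.0010. With reference genes as centre 14172 of 25429 probe sets were called higher there and 683 lower.

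**Figure D4:**
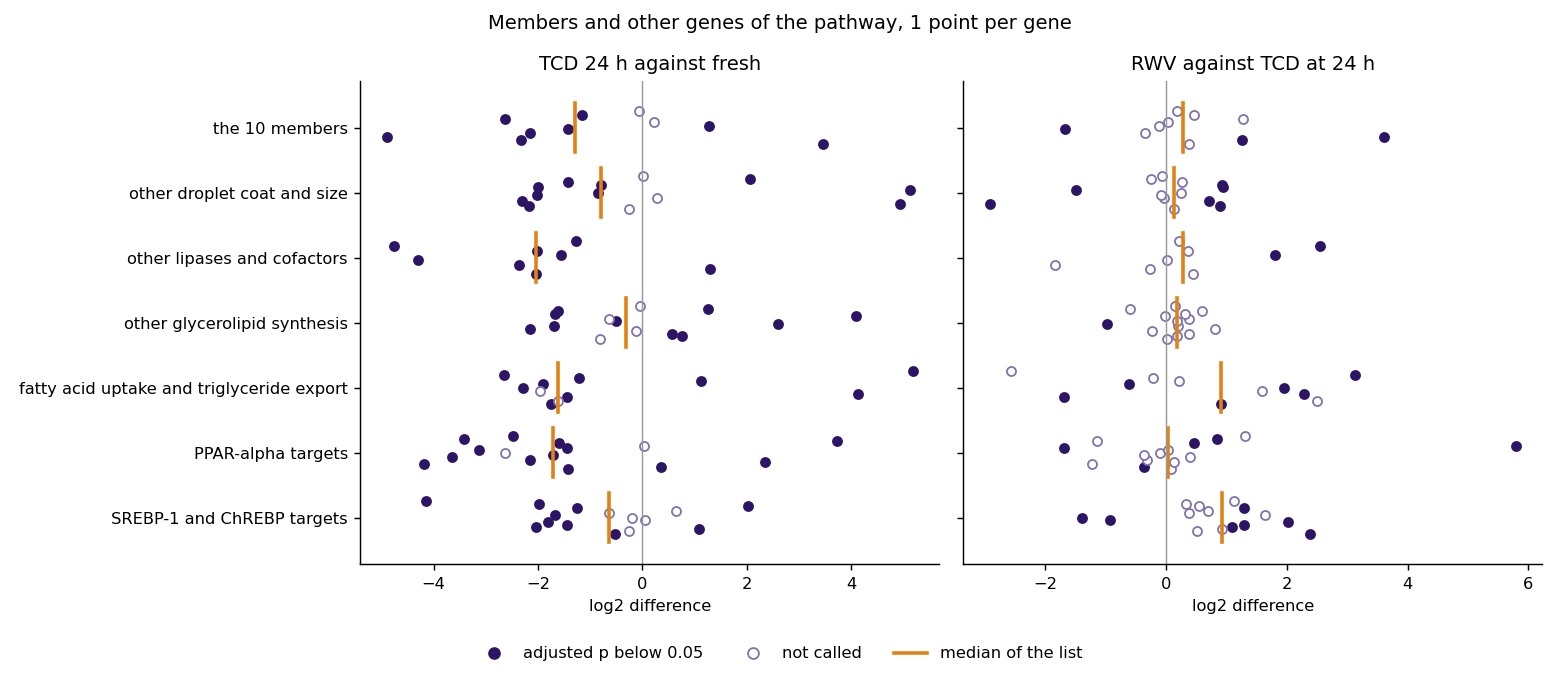
Log2 difference of each gene, 1 point per gene, for the members and for 6 lists of related genes, in TCD at 24 h against fresh cells (left) and in RWV against TCD at 24 h (right). Filled points are called at an adjusted p below 0.05 and orange lines are list medians. In the left panel the lipases have a median of -2.03, and in the right panel G0s2 at 3.61 is the highest member.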

How the data were processed

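Signals had been processed by the authors with GCRMA, per the submitters' processing notes. The deposited log2 values had a median of exactly 0 over the 3 fresh arrays in every probe set, so they are changes from fresh cells, and base 2 was taken from GCRMA's scale. GCRMA sets a floor for weak signals, and the number of arrays limits the precision. Of 45101 probe sets 64 were controls. A probe set counted as background where its SD was below 0.5 and it correlated above 0.8 with a background profile, the median per array over the 20% of probe sets that varied least, which removed 19608 and left 25429, among them 13 of the 14 member probe sets. The named genes were the 10 members with every probe set, the gene closest in course to each, and, of each list, the called gene with the largest change each way. A gene's lead probe set was the one with the largest SD over the 15 arrays. Some further list genes, such as Plin3, Cidea, Fabp4 and the Mgll and Hilpda values in other comparisons, were named after their values were seen.

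Groups were compared in 1 fit of limma 3.58.1 (R 4.3.3, 10 residual degrees of freedom), adjusted over all probe sets tested, and the code was tested on simulated data. Members and lists were chosen with earlier results of these data known. After group means were subtracted, each of the 15 arrays was compared with the arrays of other groups only. For all 15 the highest correlation was with an array of their own replicate number. Deviations of same-numbered arrays correlated above 0.1 in all 3 numbers for 5 of the 10 group pairs, which was taken as pairing there: fresh with each 4 h group, both 4 h groups, and TCD 24 h with each 4 h group. Elsewhere the block stands only as an alternative. Alternatives were no background filter, 1 probe set per gene, only the arrays compared, the replicate block, centring on reference genes and leaving out each array. Array background correction and normalization could not be varied from processed values.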

Additional observations from a re-analysis of the deposited data

Results flagged for a closer look

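Plin2 was singled out because arrays of the same replicate number differed in opposite directions in the vessels. From 4 h to 24 h the differences were 0.20, 0.34 and 0.39 in TCD and -0.39, -0.33 and -0.28 in RWV. The difference of the vessel differences was -0.64 (SE 0.21), with a limma adjusted p of 0.0759, so it was not called in the fit reported. The check of whether replicate numbers pair the arrays was met for TCD 4 h with 24 h and not for RWV 4 h with 24 h. The replicate block, which stands only as an alternative here, called the interaction (adjusted p = 0.00916) and 12.6% of all probe sets. With arrays centred on reference genes the difference from 4 h to 24 h was -0.67 in TCD (adjusted p = 0.00327) and -0.70 in RWV (adjusted p = 0.006), so both vessels had the same direction, and the interaction was -0.036 (adjusted p = 0.912).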

How the results depend on the processing

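Over the 10 members, 939 of the recomputed differences kept direction and side of the threshold, 29 lost a call and 46 gained one in the same direction. Another 36 changed sign, none of them called in the fit reported. Some of the 36 were called in the new direction with arrays centred on reference genes. They were Plin4 against fresh cells at 24 h in both vessels and Pnpla3 in RWV. From 4 h to 24 h in TCD they were Plin2 and Plin4. The cause of these changes was not tested.

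With no background filter the members called went from 0 to 2 for RWV against TCD at 4 h, where calls over all probe sets went from 1287 (1109 higher, 178 lower) to 22561 (2581 higher, 19980 lower; 50.1% of 45037), and from 0 to 2 for the interaction, where all calls went from 2631 to 14450 (32.1%). With the replicate block, members called were 3 at 4 h (5.48% of all probe sets), 2 for the interaction (12.6%; Plin2, adjusted p = 0.00916, and G0s2, adjusted p = 0.0136) and 6 from RWV 4 h to 24 h (37.9%). The block also called Plin5 between the vessels (adjusted p = 0.0259) and G0s2 against fresh cells in RWV (0.00803), both at 24 h, and lost no member's call.

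Centred on reference genes, 7 members were called between the vessels at 24 h (all calls 14172 higher and 683 lower, against 1873 and 1503), 6 for the interaction (51.6% of all probe sets), 6 for RWV 4 h against fresh cells (61.9%) and 6 from RWV 4 h to 24 h (54.3%). Between the vessels at 24 h the share of all probe sets was 58.4%. Against fresh cells at 24 h that centring took the median of all probe sets to -1.24 in TCD and -0.75 in RWV. Signs turned under it for Plin5 at 4 h (-0.050), Plin2 (0.35) and Lpin1 (0.12) between the vessels at 24 h, the Mfsd2a interaction (0.20), Pnpla2 in TCD at 4 h against fresh cells (-0.075) and Plin2 from TCD 4 h to 24 h (-0.67). For Plin4 they turned against fresh cells in TCD at 4 h (-0.22) and 24 h (-1.0002) and in RWV at 24 h (-0.50), and from 4 h to 24 h in TCD (-0.78) and RWV (-0.085). For Pnpla3 they turned against fresh cells in TCD at 4 h (-0.073) and RWV at 24 h (-0.63), and from RWV 4 h to 24 h (-0.21).

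Leaving out 1 array, members called ranged from 0 to 1 for the interaction, from 5 to 8 for RWV 24 h against fresh cells, from 2 to 4 from RWV 4 h to 24 h, from 2 to 3 for each vessel at 4 h against fresh cells, from 6 to 7 from TCD 4 h to 24 h, and stayed at 0 and 3 between the vessels and at 8 for TCD 24 h against fresh cells. Of 25429 probe sets, 1806 to 2750 were called for the interaction and 9655 to 10475 for RWV 24 h against fresh cells. Calls numbered 7820 to 8200 from RWV 4 h to 24 h. At 4 h against fresh cells there were 4300 to 5151 in TCD and 5080 to 5843 in RWV. From TCD 4 h to 24 h there were 10723 to 12209, and 11335 to 12126 for TCD 24 h against fresh cells. Between the vessels there were 607 to 1582 at 4 h and 2172 to 3079 at 24 h. Ranges that crossed 0 were, between the vessels at 4 h, those of Plin5 (-0.17 to 0.44), Cidec (-0.72 to 0.30) and Pnpla2 (-0.40 to 0.068), the Lpin1 interaction (-0.31 to 0.44), and, against fresh cells at 4 h, Pnpla2 in RWV (-0.24 to 0.23) and Plin5 in TCD (-0.97 to 0.067) and RWV (-0.89 to 0.15). So did those of Plin4 between the vessels at 24 h (-0.075 to 0.19), in the interaction (-0.017 to 0.25) and in TCD at 4 h against fresh cells (-0.0058 to 0.029), and of Pnpla3 in RWV at 24 h against fresh cells (-0.046 to 0.19).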

Other observations

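The value 1.07 of Plin2 occurred on 3 of the 12 cultured arrays with all deposited digits equal, and 3.71 of Cidec on 2. Such ties among cultured arrays were present in 3885 of 45037 probe sets (8.63%). Plin4 stood at 0, the value of its fresh median, on replicate 3 of TCD at both 4 h and 24 h. Replicate 3 was the highest array for Plin2 in 5 of 5 groups and the lowest for Plin5 in 5 of 5.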
